A study of Mus musculus with 13 samples.

Results

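The genes described here mark the osteoclast, the cell that resorbs bone and calcified cartilage. They were chosen by symbol from the deposited gene table, and all 9 members were found among its 18748 genes: Acp5, Ctsk, Ocstamp, Dcstamp, Nfatc1, Oscar, Siglec15, Calcr and Itgb3. Messenger RNA had been sequenced from the mandibular condylar cartilage of the temporomandibular joint in aged mice (18 months old, 6 libraries) and young mice (2 months old, 7 libraries), to find genes that differ between the ages. The labels give no strain, sex, genotype or treatment, and do not say whether each library came from 1 mouse, so the p-values measure the spread between libraries only.

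Osteoclasts form when precursors of the monocyte lineage receive CSF1 and RANKL, a TNF family cytokine made by osteoblasts, osteocytes and hypertrophic chondrocytes. Calcium signals from receptors that pair with immunoreceptor (ITAM) adaptors then switch on NFATc1, a transcription factor that raises the genes for cell fusion and for resorption. The fused cell attaches to matrix through an integrin, seals off a space, acidifies it, and releases proteases and a phosphatase into it. In the condyle, osteoclasts work where hypertrophic cartilage meets the subchondral bone.

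The depth of a library, as total expected counts, ranged from 16356839 to 17876681 in the aged group and from 17531694 to 18203443 in the young group. All 9 members passed the filter on low counts and were tested in 1 fit with 14067 genes. The tissue label was checked against 10 chondrocyte markers, of which 6 were lower, 2 higher and 2 not called in aged cartilage. Col2a1, the main cartilage collagen, stood at 1603 ± 715 FPKM in aged libraries (SD, n = 6) and 5108 ± 946 FPKM in young libraries (SD, n = 7). The proteoglycan gene Acan (301.7 ± 69.0 FPKM in aged and 269.4 ± 55.7 FPKM in young libraries) and the chondrocyte regulator Sox9 were not called, and Comp and Prg4, the gene of lubricin, were higher in aged cartilage. Matn1, Matn3 and Cnmd, which encodes chondromodulin, were close to absent in aged libraries, at 0.0167, 0.578 and 0.578 FPKM, against 0.416, 9.34 and 21.1 FPKM in young libraries. Col9a1 stood at 5.50 ± 3.65 FPKM in aged and 143.0 ± 25.8 FPKM in young libraries. Bone was present as well: 10 osteoblast and osteocyte markers summed to between 5793 and 9929 CPM in aged libraries and between 9796 and 13430 CPM in young libraries. Here CPM are counts scaled to library size by TMM factors, and FPKM are the deposited values, which are also scaled to gene length.

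Of the 9 members, 6 were lower in aged cartilage, 1 (Nfatc1) was higher, and 2 (Calcr and Itgb3) were not called by edgeR's quasi-likelihood test at a Benjamini-Hochberg adjusted p of 0.05. Among all tested genes 46.2% were called, 21.6% as lower and 24.7% as higher. The median log2 fold change, aged over young, was −0.90 over the members and 0.014 over all tested genes. In all of the 6 lower members every aged library lay below every young library, which held for 10.9% of tested genes. For Nfatc1 every aged library lay above every young library, which held for 8.28% of tested genes. In whole tissue, fewer osteoclasts, less of each RNA per osteoclast and a larger share of RNA from other cells cannot be told apart.

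**Figure D1:**
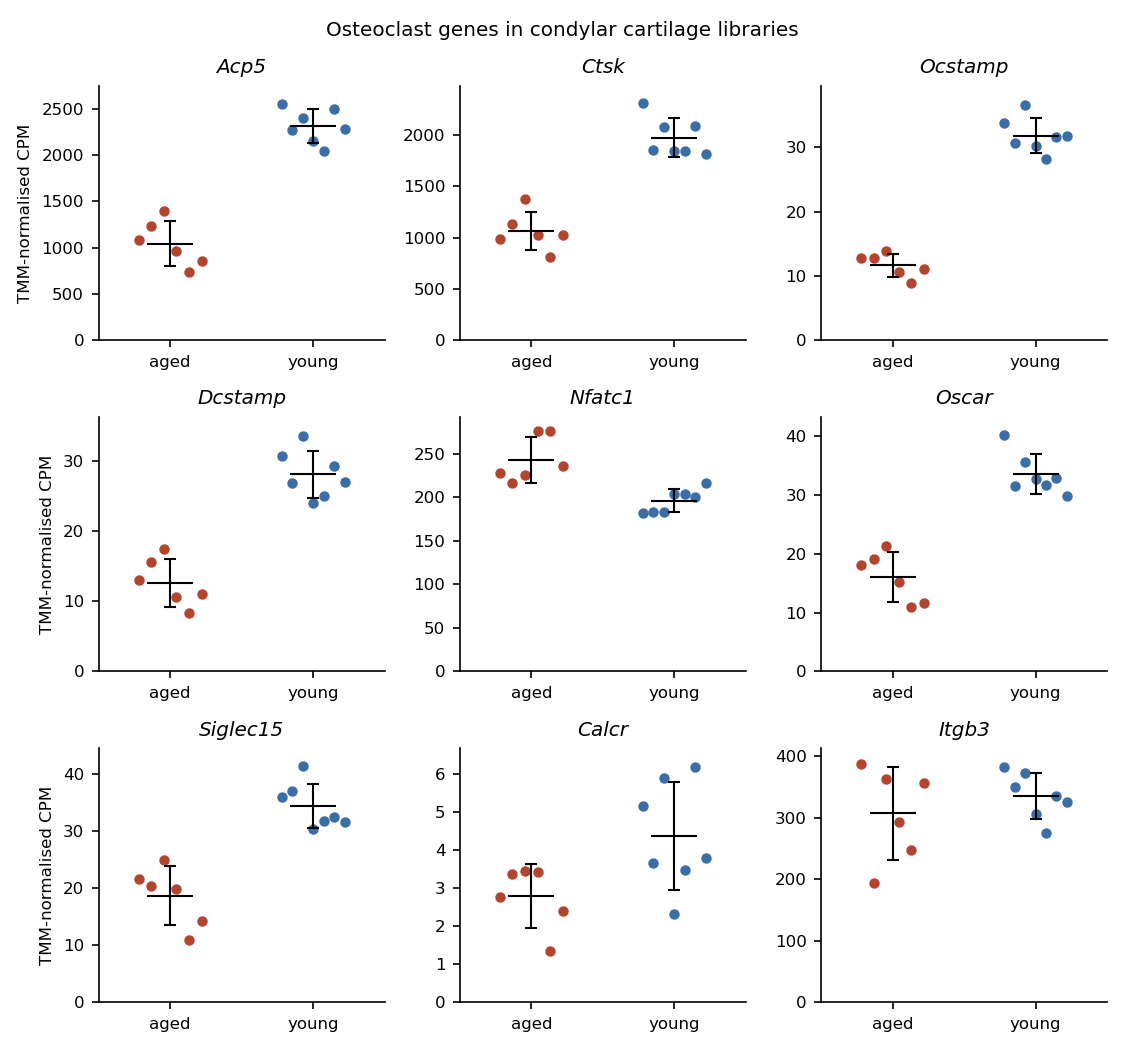
TMM-normalised CPM of each of the 9 genes (vertical axes, from 0) in 6 aged and 7 young libraries (1 point per library; black bars are the mean ± SD). The aged and young points do not overlap for Acp5, Ctsk, Ocstamp, Dcstamp, Oscar, Siglec15 and, in the opposite direction, Nfatc1, while they overlap for Calcr and Itgb3.

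The secreted enzymes of resorption were the most abundant members. Acp5 encodes tartrate-resistant acid phosphatase, the enzyme by which osteoclasts are stained in tissue sections. Its CPM had a lowest, median and highest value of 741.1, 1023 and 1393 in aged libraries, against 2041, 2280 and 2550 in young libraries. The highest aged library thus stayed well under the lowest young one. The log2 fold change was −1.15 ± 0.13 (± SE, adjusted p by edgeR = 1.31e-05), and the level fell by 54.8%. By mean FPKM, Acp5 ranked 48th of all genes in the table in aged cartilage and 12th in young cartilage, and it took 0.114 ± 0.0271% of all counts in aged libraries (SD, n = 6) and 0.215 ± 0.0182% in young libraries (SD, n = 7).

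Ctsk encodes cathepsin K, the cysteine protease that cleaves collagen in the acid space under the osteoclast, and it is also made by some fibroblasts and periosteal cells. Its CPM ran from 811.4 through a median of 1028 to 1370 in aged libraries, and from 1816 through 1851 to 2303 in young libraries. The log2 fold change was −0.90 ± 0.11 (± SE, adjusted p by edgeR = 2.23e-05). Ctsk ranked 73rd by mean FPKM in aged cartilage and 21st in young cartilage. Acp5 exceeded Ctsk in FPKM in all 6 aged and all 7 young libraries, by a ratio of 1.19 ± 0.127 in aged libraries (SD, n = 6) and 1.44 ± 0.0670 in young libraries (SD, n = 7). On the log2 CPM scale this ratio fell by 0.27 (two-sided exact permutation p = 0.000583, the smallest that the 1716 splits can give; adjusted p = 0.00191 over 36 pairs of members), so that Acp5 was reduced more than Ctsk.

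The promoters of these genes are shown because NFATc1, whose transcript moved against them, is known to act on osteoclast gene promoters. RefSeq promoter windows of build GRCm38.p6 (250 bases before to 50 bases after a start) were searched for the members, except on a left-out chromosome. They matched 4 of the 9 members, Acp5, Ctsk, Oscar and Calcr, with 7 start sites in all. A member on the left-out chromosome could not be matched, so the members without a window here may still have one. The deposited table was made on another build, GRCm39. In the sequences below, written 5′ to 3′ on the strand of the gene, capitals mark the NFAT core GGAAA, which reads TTTCC on the other strand. The Acp5 window is chr9:22130549-22130848 (minus strand, the start nearest the end of the gene), the Ctsk window chr3:95498960-95499259 (plus strand), and the Oscar window chr7:3616108-3616407 (minus strand).
Acp5: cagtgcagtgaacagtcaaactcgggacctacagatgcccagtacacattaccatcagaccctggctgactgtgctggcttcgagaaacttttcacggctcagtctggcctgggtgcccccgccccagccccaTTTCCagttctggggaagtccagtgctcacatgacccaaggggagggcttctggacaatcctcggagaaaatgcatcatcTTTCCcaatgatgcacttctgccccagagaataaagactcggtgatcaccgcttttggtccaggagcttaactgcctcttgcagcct
Ctsk: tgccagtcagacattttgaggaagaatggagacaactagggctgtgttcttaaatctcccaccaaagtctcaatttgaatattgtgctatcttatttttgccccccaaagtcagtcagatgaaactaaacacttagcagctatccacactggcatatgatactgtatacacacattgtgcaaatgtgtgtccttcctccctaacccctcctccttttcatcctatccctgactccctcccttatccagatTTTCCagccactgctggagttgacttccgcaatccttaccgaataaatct
Oscar: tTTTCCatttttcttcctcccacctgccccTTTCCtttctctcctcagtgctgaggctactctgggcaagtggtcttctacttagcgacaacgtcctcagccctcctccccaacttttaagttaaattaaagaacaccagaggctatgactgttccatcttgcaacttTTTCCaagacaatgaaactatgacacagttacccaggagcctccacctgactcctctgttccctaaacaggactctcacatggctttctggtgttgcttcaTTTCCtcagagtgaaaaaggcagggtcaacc

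The Oscar window held 4 NFAT cores, this Acp5 window 2 and the Ctsk window 1. The other Acp5 windows, not shown, held 1 each, and the Calcr windows held 0 and 1. On either strand, 61.3% of the 32851 promoter windows in the table hold at least 1, so a match is common. The PU.1 motif GAGGAA, found in 28.3% of windows, occurred 2 times in the Oscar window, where the copy behind the start overlaps an NFAT core, and 2 times in the Ctsk window. The AP-1 motif TGANTCA, found in 7.81% of windows, occurred in none of the 7 member windows searched. The MITF motif TCANGTG, found in 14.3%, occurred 1 time each in this Acp5 window, in the Oscar window and in 1 of 2 Calcr windows. Such matches describe the letters of these windows and are not measured binding sites.

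The fusion receptors Ocstamp and Dcstamp encode related multi-pass membrane proteins that mononuclear precursors need in order to fuse. Ocstamp had a CPM of 8.99, 11.9 and 13.8 (lowest, median and highest) in aged libraries, against 28.1, 31.5 and 36.6 in young libraries. It was the largest change among the members, a log2 fold change of −1.44 ± 0.097 (± SE, adjusted p by edgeR = 1.61e-07), and 1.19% of tested genes had a lower one. Dcstamp had 8.26, 12.02 and 17.5 CPM in aged libraries, against 24.0, 27.0 and 33.6 CPM in young libraries. Its log2 fold change was −1.15 ± 0.15 (± SE, adjusted p by edgeR = 3.83e-05), and the ages did not overlap for either gene.

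Per length, Ocstamp stood at 7.71 ± 1.29 FPKM and Dcstamp at 8.60 ± 2.21 FPKM in aged libraries (SD, n = 6). In young libraries Ocstamp stood at 18.2 ± 1.76 FPKM and Dcstamp at 16.4 ± 2.13 FPKM (SD, n = 7). Dcstamp exceeded Ocstamp in 5 of 6 aged libraries, whereas Ocstamp exceeded Dcstamp in all 7 young libraries. The log2 ratio of Ocstamp to Dcstamp, on the CPM scale, fell by 0.27 (two-sided exact permutation p = 0.00117, adjusted p = 0.00323 over 36 pairs). With Ocstamp on top, the log2 ratio fell against each of the other 5 lower members, by between 0.27 and 0.54, with adjusted p between 0.00191 and 0.00994 in the same exact test.

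Oscar and Siglec15 are costimulatory receptors. OSCAR binds exposed collagen and signals through the FcR gamma chain (Fcer1g), and Siglec-15 binds sialylated glycans and signals through DAP12 (Tyrobp). Oscar had 10.9, 16.6 and 21.3 CPM (lowest, median and highest) in aged libraries, against 29.8, 32.6 and 40.1 CPM in young libraries. Its log2 fold change was −1.06 ± 0.14 (± SE, adjusted p by edgeR = 5.54e-05). Siglec15 had 11, 20.2 and 25.0 CPM in aged libraries, against 30.5, 32.6 and 41.4 CPM in young libraries. Its log2 fold change was −0.88 ± 0.16 (± SE, adjusted p by edgeR = 0.000514), with no overlap between the ages.

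The adaptors of these receptors moved the other way. Fcer1g stood at 105.9 ± 33.3 FPKM in aged libraries and 64.2 ± 9.09 FPKM in young libraries, a log2 fold change of 0.62 ± 0.16 (± SE, adjusted p by edgeR = 0.00558). Tyrobp stood at 213.6 ± 66.8 FPKM in aged libraries and 136.7 ± 18.8 FPKM in young libraries, a log2 fold change of 0.58 ± 0.17 (± SE, adjusted p by edgeR = 0.0107). Both adaptors are also expressed by neutrophils, macrophages and other myeloid cells. The summed level of 10 neutrophil markers was between 1229 and 5818 CPM in aged libraries and between 590 and 1871 CPM in young libraries, 9 of the 10 were called higher, and their part in the adaptors' rise was not tested. Of the 4 fibrillar collagen genes in the ligand list, Col1a1 (−1.92 ± 0.11), Col1a2 (−1.81 ± 0.10) and Col2a1 (−1.89 ± 0.24) were lower on the log2 scale (± SE, adjusted p by edgeR = 4.66e-08, 4.66e-08 and 3.60e-05). Col3a1 was not called, at −0.44 ± 0.18 (adjusted p = 0.0641).

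Nfatc1 encodes the main transcription factor of osteoclast formation, and it is also expressed in lymphocytes and endocardial and other endothelial cells. It had 217.0, 232.3 and 276.6 CPM (lowest, median and highest) in aged libraries, against 182.4, 201.1 and 216.9 CPM in young libraries. The lowest aged value lay just above the highest young one. The log2 fold change was 0.31 ± 0.073 (± SE, adjusted p by edgeR = 0.00333), a rise of 23.8%. The call was lost with marker scores as covariates: 0.25 (adjusted p = 0.314) with the erythroid and neutrophil score, 0.28 (0.0867) with the muscle score and 0.25 (0.217) with the osteoblast and osteocyte score. The 10 muscle fibre markers summed to between 3603 and 13863 CPM in aged and between 491.9 and 4509 CPM in young libraries. Of these 8 were called higher. Endothelial markers summed to 410.2 to 598.1 CPM in aged and 421.1 to 607.3 CPM in young libraries, with 4 lower and 1 higher. T cell markers summed to 13.57 to 23.44 CPM in aged and 14.45 to 18.21 CPM in young libraries, with 1 lower and 2 higher. The part of these cells in the level of Nfatc1 was not tested.

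The difference between Nfatc1 and the other members was tested as a log2 ratio within each library, which does not depend on library scaling. The ratio of Ocstamp to Nfatc1 was −4.37 ± 0.37 in aged libraries (SD, n = 6) and −2.63 ± 0.19 in young libraries (SD, n = 7), a difference of −1.75 (two-sided exact permutation p = 0.000583, adjusted p = 0.00191). The difference passed the adjusted threshold in 7 of the 8 pairs with Nfatc1, the exception being Itgb3 (0.46, adjusted p = 0.05003). In FPKM, Nfatc1 was 8.13 ± 2.13 times the level of Ocstamp in aged libraries and 2.33 ± 0.300 times in young libraries. Over all 36 pairs of members, 25 ratios differed between the ages. The share among pairs of other genes was not computed, and 46.2% of single tested genes were called. With the replicate number as a block, exact sign permutation called 0 pairs. In that test an adjusted call needs 23 pairs at the smallest possible p. For the low gene Calcr, the prior count of 2 used for log2 CPM damps its own change with age. This can enlarge its difference from members that fell more. With a prior count of 0.5, 25 of the 36 pairs were again called.

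**Figure D2:**
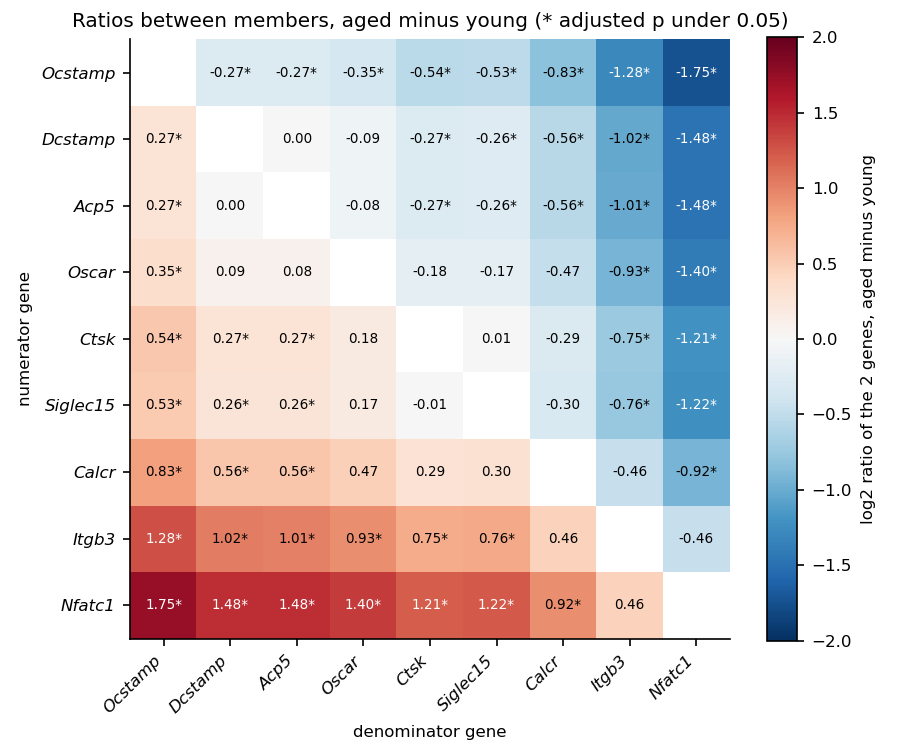
Each square gives the aged minus young difference in the mean log2 ratio of the row gene to the column gene (colour scale from −2 to 2). Stars mark adjusted p under 0.05 in the exact permutation test over 36 pairs. The row of Nfatc1 runs from 0.46 against Itgb3 to 1.75 against Ocstamp, while squares among the 6 lower members reach 0.54 at most.

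The remaining receptors did not pass the threshold. Calcr encodes the calcitonin receptor, through which the hormone calcitonin halts resorption, and it is also expressed by quiescent muscle satellite cells. It was the lowest member, at 1.34, 3.07 and 3.45 CPM (lowest, median and highest) in aged libraries, against 2.33, 3.79 and 6.18 CPM in young libraries. The expected counts behind it ranged from 24 to 101 per library, and the ages overlapped, with 1 of 6 aged libraries below every young one. The log2 fold change was −0.64 ± 0.25 (± SE, adjusted p by edgeR = 0.0504), and DESeq2 called it (−0.64, adjusted p = 0.0349), as did edgeR without young replicate 4 (−0.75, adjusted p = 0.0197), without aged replicate 3 (−0.72, 0.0453) or without aged replicate 4 (−0.71, 0.0489). Quantile scaling with limma-voom called it too (−0.92, 0.0152). It was −0.22 on log2(FPKM + 1) (adjusted p = 0.160), and −0.31, −0.26 and −0.068 in edgeR fits with the erythroid and neutrophil, muscle, and osteoblast and osteocyte scores (adjusted p = 0.741, 0.683 and 0.934).

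The list of 5 muscle satellite cell markers summed to between 12.6 and 39.3 CPM in aged libraries and between 73.2 and 105.3 CPM in young libraries. Most of this was Cdh15, which encodes M-cadherin, at 24.3 CPM on average in aged and 81.9 CPM in young libraries, and it was called lower (−1.75, adjusted p by edgeR = 2.29e-05), in the direction of the estimate for Calcr. The other markers did not share this direction. Myod1 was not called (1.07, edgeR adjusted p = 0.124). Pax7, Myf5 and Chrna1 were below the filter, and Pax7 and Myf5 stayed at or under 1.035 and 0.396 CPM in every library. The mean CPM of each was higher in aged than in young libraries: Pax7 0.649 against 0.242, Myf5 0.201 against 0.0785, Chrna1 0.342 against 0.232. The part of satellite cells in the level of Calcr was not tested.

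Accessory proteins of the RAMP family turn the calcitonin receptor into an amylin receptor. Ramp3 stood at 2.51 ± 1.27 FPKM in aged libraries and 7.93 ± 1.05 FPKM in young libraries, a log2 fold change of −1.84 ± 0.25 (± SE, adjusted p by edgeR = 5.64e-05). Ramp1 had a log2 fold change of −0.59 ± 0.14 (± SE, adjusted p by edgeR = 0.00353), and Ramp2 one of 0.043 ± 0.16, which was not called (adjusted p = 0.845). Calca, the gene of calcitonin itself and of CGRP, was below the filter, with at most 0.1 FPKM in any library.

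Itgb3 encodes the integrin beta 3 chain. It pairs with the alpha v chain (Itgav) in the vitronectin receptor of osteoclasts, and with the alpha IIb chain (Itga2b) on platelets and megakaryocytes. Itgb3 had 193.2, 324.7 and 387.4 CPM (lowest, median and highest) in aged libraries, against 275.4, 334.6 and 381.6 CPM in young libraries. Its log2 fold change was −0.13 ± 0.14 (± SE, adjusted p by edgeR = 0.497), and its sign turned with library sizes in place of TMM factors (0.11) and on log2(FPKM + 1) (0.060). The aged libraries spanned a wider range on both sides of the young ones, with a coefficient of variation of 24.7% in aged and 11.1% in young libraries. Still, the log2 ratio of Ocstamp to Itgb3 fell by 1.28 and that of Acp5 to Itgb3 by 1.01 (two-sided exact permutation p = 0.000583, adjusted p = 0.00191 for each).

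The partner chains of Itgb3 moved apart. Itgav stood at 31.2 ± 1.93 FPKM in aged and 42.2 ± 2.68 FPKM in young libraries, a log2 fold change of −0.65 ± 0.066 (± SE, adjusted p by edgeR = 4.24e-06). Itga2b stood at 29.6 ± 16.8 FPKM in aged and 3.33 ± 1.52 FPKM in young libraries, a log2 fold change of 2.92 ± 0.42 (± SE, adjusted p by edgeR = 0.000108). In CPM, Itga2b was lowest among the aged libraries in replicate 2 (15.04) and highest in replicates 1 (136.7) and 6 (133.0). It was at 68.5, 68.7 and 85.3 CPM in aged replicates 3, 4 and 5. Itgb3 was at 387.4, 193.2, 363.3, 292.7, 247.6 and 356.7 CPM in aged replicates 1 to 6. The orders match in part: aged replicates 1 and 2 were highest and lowest for both genes, but aged replicate 3 was second highest for Itgb3 and second lowest for Itga2b, and aged replicate 5 was second lowest for Itgb3 and above the median for Itga2b.

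The whole list of 10 megakaryocyte and platelet markers summed to between 60.9 and 567 CPM in aged libraries and between 39.4 and 96.5 CPM in young libraries. Of these markers 9 were called higher, and none was at 0 in every library. Their part in the level of Itgb3 was not tested.

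**Figure D3:**
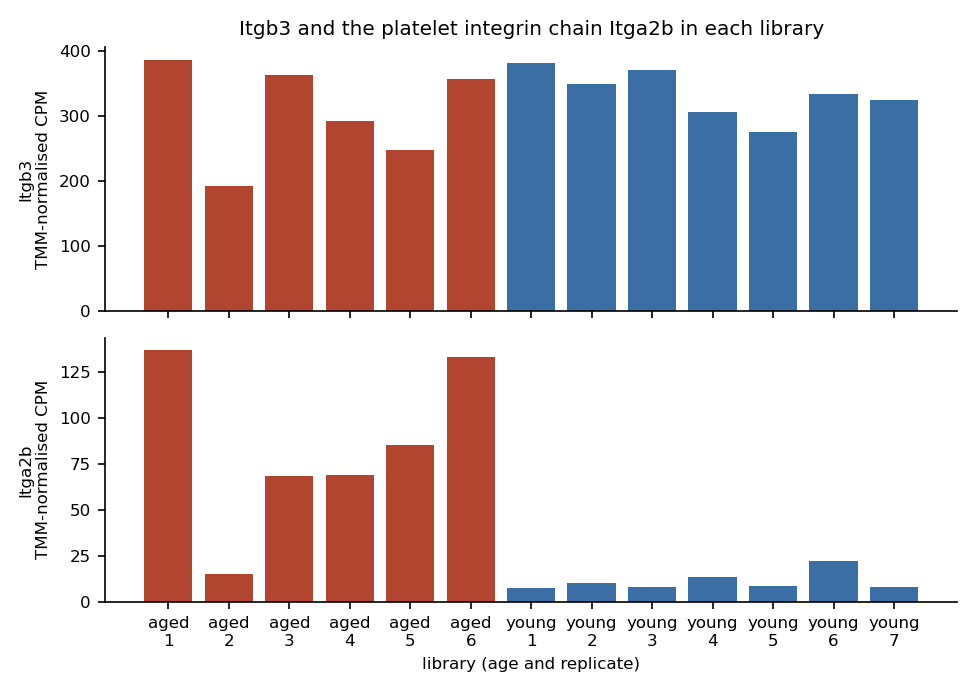
TMM-normalised CPM of Itgb3 (top) and Itga2b (bottom) in each library, aged libraries first. Aged replicate 2 is the lowest aged library for both genes, replicates 3 and 5 differ in their place between the genes, and every aged library except replicate 2 (15.04) has more Itga2b than the highest young library (21.9).

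**Figure D4:**
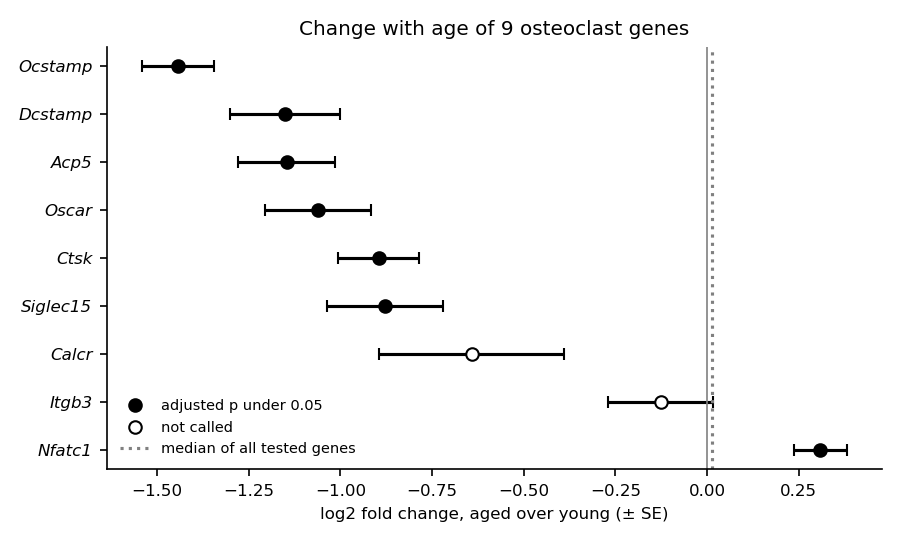
Log2 fold change, aged over young, of each member (points, ± SE), with filled points for adjusted p under 0.05 and the dotted line at the median of all tested genes. The members run from −1.44 (Ocstamp) to 0.31 (Nfatc1).

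By mean FPKM the members fell into the same broad tiers at both ages, with Acp5 and Ctsk on top, Itgb3 and Nfatc1 next, a group of 4 (Oscar, Ocstamp, Dcstamp and Siglec15), and Calcr last. In aged libraries the gaps in mean FPKM between neighbours within tiers stayed within the larger SD. Within libraries, Acp5 exceeded Ctsk and Siglec15 exceeded Dcstamp in 6 of 6. Oscar exceeded Siglec15, and Dcstamp exceeded Ocstamp, in 5 of 6. Itgb3 (61.1 ± 15.98 FPKM) and Nfatc1 (60.4 ± 5.30 FPKM) were in this order in 3 of 6 libraries. In young libraries Itgb3 (57.1 ± 6.72 FPKM) stood above Nfatc1 (42.0 ± 2.55 FPKM) in all 7 libraries. Ocstamp was second in the group of 4 in young cartilage, and last in it in aged cartilage. Dcstamp (16.4 ± 2.13 FPKM) and Siglec15 (16.3 ± 1.95 FPKM) differed by less than their spread in young libraries.

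Within an age, 7 of the 9 members were lowest in the same aged library, replicate 5, and 7 were highest in aged replicate 3. The exceptions were Nfatc1, which was highest in aged replicate 5, and Itgb3, which was highest in aged replicate 1. Aged replicate 3 had the fewest erythroid and neutrophil marker counts among aged libraries (453.8 and 1229 CPM), whereas aged replicate 5 (1078 and 2029 CPM) did not have the most. Without aged replicate 5 the log2 fold changes of the 6 lower members stayed negative and called.

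To describe which genes vary with the members between libraries of 1 age, the mean of each age was subtracted from log2 CPM and the remaining deviations were correlated over the 13 libraries. These values are descriptive, have no test, and share the depth and cell content of the libraries. The deviations were not scaled within an age, so the more variable aged libraries weigh more. The coefficient of variation in CPM was larger in aged libraries for all members but Calcr (Acp5, 23.2% in aged and 7.89% in young libraries). For Ocstamp, the gene most like it among 14066 others was Dcstamp (Pearson r = 0.952), followed by Mmp9 (0.926), the gelatinase of osteoclasts and neutrophils. For Dcstamp the order was Ocstamp (0.952), Acp5 (0.947) and the creatine kinase Ckb (0.946). For Acp5 it was Csf1r (0.954), the CSF1 receptor, then Kazn (0.953) and Prdm1 (0.952), and for Oscar it was Prdm1 (0.959), Jmjd4 (0.959) and Tnfrsf11a (0.950), which encodes RANK. Siglec15 was most like Grk3 (0.946), Slc37a2 (0.944) and Traf6 (0.935), the adaptor of RANK.

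The nearest genes to Ctsk were the cathepsin gene Ctsz (0.969), Gpr137b (0.931) and Washc1 (0.920), with Dcstamp at place 14 and Acp5 at place 17. Calcr, with its low counts, had Nyap2 (0.913), Tgif2 (0.897) and Galc (0.889), and Dcstamp stood at place 46. Nfatc1 had Ttll1 (0.945), Qsox2 (0.938) and Pggt1b (0.936), and its deviations ran against all the other members, from −0.245 with Itgb3 to −0.783 with Dcstamp. Itgb3 was most like Nup214 (0.894), Tollip (0.883) and Btrc (0.869), and the nearest member to it, Ocstamp, stood at place 1676.

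The wider osteoclast pathway was read from 7 lists of 63 genes, 62 of them tested. Of these 27 were lower in aged cartilage, 16 were higher and 19 were not called, with a median log2 fold change of −0.075. Among all 14067 tested genes, 21.6% were lower and 24.7% higher. With library sizes alone in place of TMM factors, 17 pathway genes were lower and 21 higher. That fit called 1253 genes lower and 7034 higher among all 14067 tested genes. In signalling by RANKL and CSF1, 4 of 7 genes were lower and 2 higher. Tnfsf11, which encodes RANKL, stood at 12.4 ± 1.62 FPKM in aged and 22.8 ± 1.28 FPKM in young libraries, a log2 fold change of −1.08 ± 0.082 (± SE, adjusted p by edgeR = 4.19e-07). Tnfrsf11a (RANK) had a log2 fold change of −0.63 ± 0.13. Tnfrsf11b, which encodes the RANKL decoy OPG, stood at 98.0 ± 54.9 FPKM in aged and 24.4 ± 3.34 FPKM in young libraries, a log2 fold change of 1.81 ± 0.28 (± SE, adjusted p by edgeR = 0.000184).

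Genes of acid secretion and resorption were lower in 9 of 11 cases and higher in 2. Mmp9 stood at 486.8 ± 95.4 FPKM in aged and 907.0 ± 89.8 FPKM in young libraries (log2 fold change −1.11 ± 0.12, ± SE, adjusted p by edgeR = 8.29e-06), and Rab38 had a log2 fold change of −0.79 ± 0.11. Car2, a carbonic anhydrase that supplies protons in osteoclasts and is abundant in red cells, rose by 2.46 ± 0.28 on the log2 scale (edgeR adjusted p = 1.73e-05). Beside it, 10 erythroid markers summed to between 453.8 and 1687 CPM in aged libraries and between 30.4 and 215.7 CPM in young libraries, all 10 were called higher, and their part in the level of Car2 was not tested.

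Among 10 further genes of cell fusion, 3 were lower, 2 higher and 5 not called. Adam12, a metalloproteinase also made by mesenchymal cells, had a log2 fold change of −1.74 ± 0.11, Sh3pxd2a, a podosome scaffold, −0.90 ± 0.13, and Cd47, a ligand of the fusion partner SIRP alpha, 0.52 ± 0.085 (± SE, adjusted p by edgeR = 7.67e-08, 6.70e-05 and 0.000252). Of 9 transcription factors that act with or before NFATc1, 2 were called, Jdp2 (−0.60 ± 0.092) and Prdm1 (−0.42 ± 0.12), both lower (± SE, adjusted p by edgeR = 0.000147 and 0.00951). Prdm1 encodes Blimp1, which silences repressors of osteoclast genes. Of 4 repressors, 2 were higher, Bcl6 at 0.97 ± 0.080 and Irf8 at 0.75 ± 0.24, and none was lower (± SE, adjusted p by edgeR = 7.73e-07 and 0.0197).

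ITAM adaptors and calcium signalling genes were higher in 7 of 10 cases and lower in 1. Hcst (DAP10), an adaptor counted here that itself has no ITAM, had a log2 fold change of 1.27 ± 0.37 at a low level. Its mean was 1.37 CPM in aged and 0.569 CPM in young libraries. The receptor Trem2 had 0.77 ± 0.19 (± SE, adjusted p by edgeR = 0.0121 for Hcst and 0.00488 for Trem2). The subunits of calcineurin, which acts on NFAT proteins, moved apart. Ppp3r1 had −0.24 ± 0.055 (edgeR adjusted p = 0.00247) and Ppp3ca 0.28 ± 0.086 (edgeR adjusted p = 0.01735). Among 11 tested ligands and partners of the receptors, 8 were lower and 1 was higher. This was Vtn, which encodes the integrin ligand vitronectin, at 6.90 ± 2.84 FPKM in aged and 1.37 ± 0.883 FPKM in young libraries (log2 fold change 2.14 ± 0.41, ± SE, adjusted p by edgeR = 0.000936). Tissue macrophage markers, which osteoclast precursors share in part, were higher in 4 and lower in 1 of 8 tested genes, and their sum was between 238.1 and 432.3 CPM in aged libraries and between 263.7 and 344.0 CPM in young libraries.

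**Figure D5:**
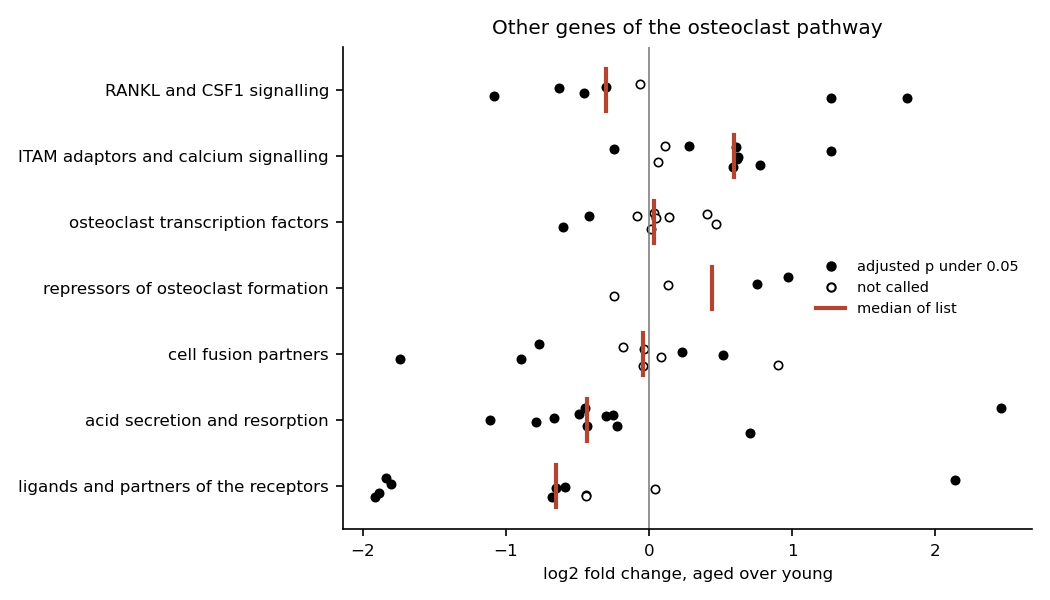
Log2 fold change, aged over young, of the 62 tested pathway genes by list (1 point per gene, filled for adjusted p under 0.05; vertical bars are list medians). Acid secretion genes lie mostly below 0 except Car2 (2.46) and Pstpip2 (0.71), and genes of the ITAM adaptor and calcium signalling list mostly above 0.

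Marker scores that follow age limit these calls. Where the fit also held a score of erythroid and neutrophil markers (r = 0.891 with the age group), Ocstamp was the only member still called (−1.18, edgeR adjusted p = 0.00403), while Acp5 stood at −0.77 (0.0626), Ctsk at −0.69 (0.0591), Oscar at −0.81 (0.0836), Dcstamp at −0.67 (0.125) and Siglec15 at −0.50 (0.313). With the osteoblast and osteocyte score (r = −0.838) 4 members stayed lower, and Oscar (−0.70, adjusted p = 0.0645) and Siglec15 (−0.41, 0.284) were not called. With the muscle score (r = 0.751) all 6 lower members stayed called.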

How the data were processed

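Poly(A) RNA from TRIzol extracts was sequenced as stranded read pairs by DNBSEQ, per the labels' protocols. The build was GRCm39 and the tools named were RSEM 1.3.1, HISAT2 2.1.0, DESeq2 1.4.5 and Bowtie2 2.3.4.3, per the submitters' processing notes, without roles or order. The annotation was not given in the sources used here. The authors deposited 1 table of expected counts (5.30% of values not whole), FPKM and TPM per library, per the file headers. The authors' deposited FPKM and TPM are normalised by gene length and depth.

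Rounded expected counts were then fitted by edgeR 4.0.16 under R 4.3.3 (filterByExpr with a minimum count of 10 and a minimum total of 15, TMM factors, glmQLFit with robust estimation, glmQLFTest, Benjamini-Hochberg over 14067 genes, threshold 0.05) in all 13 libraries, grouped by the age in their titles. The SE is the size of the log2 fold change divided by the square root of F. Ratios of 2 members per library (log2 CPM, prior count 2) were tested by two-sided exact permutation over 1716 splits. Alternatives used limma 3.58.1 and DESeq2 1.42.0, and figures matplotlib 3.10.9. Counts were simulated for the comparison of ages (14067 genes, 50 changed at each size). On these, edgeR recovered 76% of changes of 1.5-fold, 94% of 2-fold ones, 98% of 4-fold ones and 100% of 8-fold ones. Of its calls 5.64% were false. Changed genes were drawn above a floor on mean CPM, and all others were left unchanged. The rates hold for this setting only, since 46.2% of tested genes were called in the data.

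The members and gene lists were chosen with earlier results of these data known. All members are named. Each pathway list is represented by the 2 called genes that moved most in its more common direction and the 1 that moved most the opposite way. For each member the 3 most similar genes whose FPKM averaged 1 or more are given, without predicted genes, except that 1 gene is not reported here. Other genes are named as ligands, adaptors, enzyme subunits or markers and were picked after their values were seen. The spread between libraries limits precision, and Calcr has the fewest counts of the members. No 2 libraries of 1 age agreed within sampling noise (chi-square per degree of freedom at least 9.87).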

Additional observations from a re-analysis of the deposited data

How the results depend on the processing

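The 6 lower members and Nfatc1 kept their direction under all 28 alternatives, and calls were lost only with marker scores as covariates. Nfatc1 lost its call with each score. The 6 lower members all kept theirs with the muscle score, and Ocstamp kept its call with every score. With the erythroid and neutrophil score 1 member was called lower and 0 higher, 2040 genes were called in all (6504 without it), and 9 pathway genes were lower and 3 higher. With the muscle score 0 members were called higher (Nfatc1, edgeR unadjusted p = 0.0281; 0.146 under the erythroid and neutrophil score, 0.0823 under the osteoblast score; DESeq2 called it without a covariate), 3812 genes in all and 17 pathway genes lower. With the osteoblast and osteocyte score 0 members were higher, 2303 genes were called, and 12 pathway genes were lower and 5 higher. The cause was not tested.

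Scaling by library size, without TMM factors, moved the median of all tested genes to 0.24, and calls to 7034 higher and 1253 lower, against 3471 higher and 3033 lower with TMM. Log2(FPKM + 1) gave 6446 and 1393, TPM 4049 and 2242, and quantile scaling 2583 and 4014. Pathway genes called lower then numbered 17 with library sizes alone and 17 with FPKM under either pseudocount or with no filter. Relative to the median of all genes, Nfatc1 stood at 0.29 with library sizes alone and at 0.29 with TMM, and Acp5 at −1.16 in both. Itgb3, not called anywhere, changed sign: 0.11 with library sizes alone, 0.060 on log2(FPKM + 1) with or without a filter, 0.061 on log2(FPKM + 0.1) and 0.15 with the muscle score.

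Leaving out each library in turn gave 5888 to 6513 genes called, 6 to 7 members lower, 1 higher, 26 to 28 pathway genes lower, 13 to 17 higher and 24 to 27 pairs of members. Libraries with the same replicate number did not deviate together in every case (r from −0.120 to 0.258 over 6 numbers). The labels do not say whether the numbers pair libraries, and correlations of expression cannot decide it. With the replicate block in edgeR, 5789 genes were called and every member kept its side of the threshold. Pairs of members under the block, tested by exact sign permutation in 6 numbers, gave 0 calls: 18 of 36 had the smallest possible p of 0.0313, and 23 would be needed for an adjusted call. Calcr, with 24 to 101 expected counts per library, ranged from −0.92 to −0.068 over the settings other than leaving out a library.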

Other observations

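Among the osteoblast and osteocyte markers, 7 of 10 were lower in aged libraries and 1 was higher. The following 3 were picked after their values were seen. Sost, which encodes the Wnt inhibitor sclerostin, stood at 418.3 ± 147 FPKM in aged and 203.3 ± 81.5 FPKM in young libraries (log2 fold change 0.84 ± 0.29, ± SE, adjusted p by edgeR = 0.0300). Dmp1, an osteocyte matrix protein, had a log2 fold change of −1.31 ± 0.19 (adjusted p = 9.60e-05), and Mepe was not called (0.050, adjusted p = 0.898).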
